A study of Mus musculus with 11 samples.

Results

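The 6 genes described here are the liver-secreted inflammation proteins of 2 families, serum amyloid A (Saa1, Saa2, Saa3 and Saa4) and the short pentraxins (Apcs and Crp), out of 19938 genes measured. A gene's members were the probe sets that the platform annotation gives to its symbol alone, with the brightest over 11 arrays to be taken where there were several; each of the 6 genes had 1 such probe set and none that it shared with another symbol. Levels came from Affymetrix arrays of total liver RNA from male mice aged 14 months: 3 wild-type C57BL/6 livers, 4 from mice without Mdr2 (Mdr2-KO) and 4 from mice without both Mdr2 and interleukin 6 (Mdr2-KO/IL6-KO, the double knockout). Both knockout groups therefore lack Mdr2, and their samples were taken from tumour-free tissue. The labels state the strain for the wild-type mice only and do not describe how the knockout alleles were made, and no group lacks interleukin 6 alone. The wild-type titles carry identifiers that begin with W and all knockout titles identifiers that begin with BIL; what these mark is not stated, and in each comparison with wild type it cannot be told apart from genotype. They do not state outright that each array is a separate animal, so a p-value here speaks to the scatter among the samples, which may be partly technical. Values are log2 levels after RMA, on which a difference of 1 is a doubling of signal, and group errors are SD over arrays.

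Serum amyloid A proteins are small apolipoproteins that ride on high-density lipoprotein. Saa1 and Saa2 are the acute-phase forms, made by hepatocytes when interleukin 6 and interleukin 1 reach them through the STAT3, C/EBP and NF-kappaB factors; Saa3 is induced in macrophages and fat as well as liver, and Saa4 is the constitutive form. The pentraxins are ring-shaped plasma proteins that bind phosphocholine, bacterial surfaces and dead cells. In the mouse the serum amyloid P component, encoded by Apcs, is the strong acute-phase pentraxin, while C-reactive protein, encoded by Crp, responds little, the reverse of the human pair. Mdr2, encoded by Abcb4, moves phosphatidylcholine into bile, and its loss injures the bile ducts.

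All 6 genes had their highest group mean in wild type, a lower one in Mdr2-KO and the lowest in Mdr2-KO/IL6-KO liver. Saa1, Saa2, Saa3, Saa4 and Apcs fell between wild type and Mdr2-KO/IL6-KO, by 2.32-fold for Saa4 to 8.09-fold for Saa1. No member passed the test at either intermediate step.

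**Figure D1:**
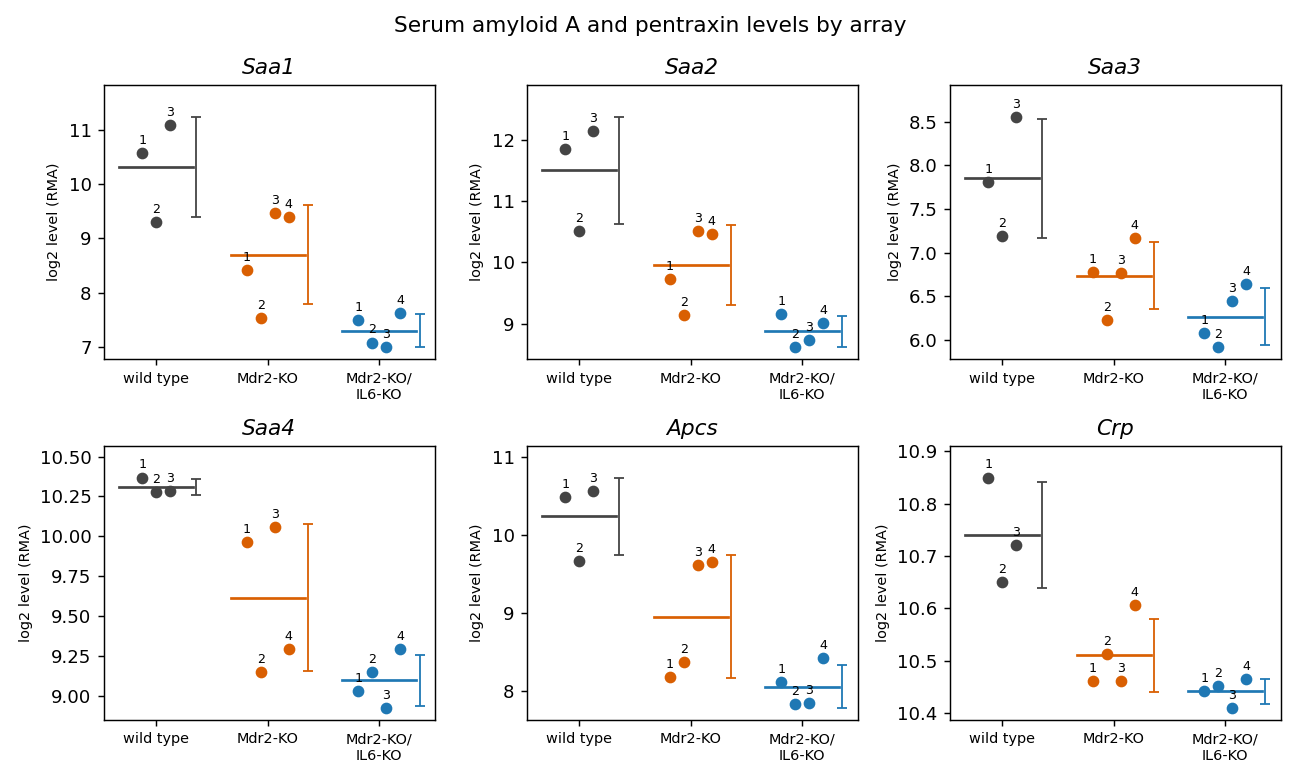
Log2 level of each member on each array, with the replicate number beside each point, the group mean as a horizontal line and the SD over arrays as the bar at its right; each panel has its own scale, which does not start at 0. Every Mdr2-KO/IL6-KO array lies below every wild-type array in all 6 panels, while Mdr2-KO arrays overlap the Mdr2-KO/IL6-KO arrays in each.

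Saa1, the acute-phase form with the widest span here (probe set 10563611), had wild-type levels of 10.58, 9.29 and 11.08, Mdr2-KO levels of 8.41, 7.53, 9.46 and 9.40, and Mdr2-KO/IL6-KO levels of 7.50, 7.08, 6.99 and 7.62. Wild-type replicate 2 was low enough to lie within the Mdr2-KO range, and Mdr2-KO replicate 2 lay between the Mdr2-KO/IL6-KO arrays. The group means were 10.3 ± 0.921 (SD, n = 3), 8.70 ± 0.916 (SD, n = 4) and 7.30 ± 0.308 (SD, n = 4). Saa1 fell by 3.02 ± 0.45 (SE) on the log2 scale from wild type to Mdr2-KO/IL6-KO, an 8.09-fold drop (limma adjusted p = 0.00192). By log2 change, which takes no account of spread within groups, it ranked 5 from the most lowered of all 19938 genes. By limma p-value in either direction its rank was 136. Mdr2-KO minus wild type was -1.61 (95% interval -2.58 to -0.64, adjusted p = 0.130) and Mdr2-KO/IL6-KO minus Mdr2-KO was -1.40 (-2.30 to -0.50, adjusted p = 0.817), so both intervals lie below 0 although neither passed after adjustment over all genes.

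Saa2, the other acute-phase form (probe set 10553274), had wild-type levels of 11.86, 10.51 and 12.15, Mdr2-KO levels of 9.72, 9.14, 10.52 and 10.46, and Mdr2-KO/IL6-KO levels of 9.16, 8.61, 8.73 and 9.02. Wild-type replicate 2 and Mdr2-KO replicate 2 again stood lowest in their groups, and the wild-type and Mdr2-KO groups overlapped by 1 array. It fell by 2.63 ± 0.37 (SE) from wild type to Mdr2-KO/IL6-KO (6.18-fold, limma adjusted p = 0.00137). Mdr2-KO minus wild type was -1.54 (95% interval -2.34 to -0.75, adjusted p = 0.0698), and Mdr2-KO/IL6-KO minus Mdr2-KO was -1.08 (-1.82 to -0.34, adjusted p = 0.930). RefSeq lists each of the names Saa1 and Saa2 as an older synonym of the other, and symbols here follow the Entrez identifiers. The coding sequences of this pair are close copies, so signal from one gene may reach the other's probes and the pair are not independent measurements.

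The sequence before each start site shows how alike the pair is, and where the other genes part from it. RefSeq (GRCm38.p6) start sites were found for all 6 members. Printed are the 250 bases before the start for Saa1 and Saa2, the pair that moved together, for Apcs, which moved with them from another chromosome, and for Saa4, their neighbour that did not follow them within groups. Capitals mark matches to 2 searched motifs, on either strand: a C/EBP core (TTNNGCAA) and a STAT site (TTCNNNGAA).
Saa1: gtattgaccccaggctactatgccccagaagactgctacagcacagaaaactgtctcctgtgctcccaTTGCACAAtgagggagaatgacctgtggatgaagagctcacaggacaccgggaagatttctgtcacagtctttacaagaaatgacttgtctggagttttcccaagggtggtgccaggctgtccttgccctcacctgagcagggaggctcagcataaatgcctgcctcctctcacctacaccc
Saa2: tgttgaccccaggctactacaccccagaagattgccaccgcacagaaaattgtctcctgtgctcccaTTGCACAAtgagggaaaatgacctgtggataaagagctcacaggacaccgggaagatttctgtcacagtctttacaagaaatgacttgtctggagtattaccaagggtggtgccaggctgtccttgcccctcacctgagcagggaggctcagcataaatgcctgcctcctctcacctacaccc
Saa4: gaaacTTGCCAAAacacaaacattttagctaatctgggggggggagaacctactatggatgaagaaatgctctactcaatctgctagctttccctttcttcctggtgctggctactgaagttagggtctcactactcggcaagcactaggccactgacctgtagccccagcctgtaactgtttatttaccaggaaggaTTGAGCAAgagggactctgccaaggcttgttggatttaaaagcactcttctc
Apcs: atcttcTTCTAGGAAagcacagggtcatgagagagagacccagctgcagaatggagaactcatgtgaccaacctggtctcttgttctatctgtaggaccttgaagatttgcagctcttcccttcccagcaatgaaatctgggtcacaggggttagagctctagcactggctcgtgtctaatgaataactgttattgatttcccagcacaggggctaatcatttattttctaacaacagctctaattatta
These lie on the minus strand at chr7:46742981-46743230 (Saa1), the plus strand at chr7:46751583-46751832 (Saa2), the minus strand at chr7:46732604-46732853 (Saa4) and the minus strand at chr1:172895055-172895304 (Apcs). The RefSeq span of Saa1 includes a longer transcript model and reaches into the printed stretch. The stretch searched for Saa3, which is not printed, lies wholly within the RefSeq span of that gene. Saa1 and Saa2 were identical at 238 aligned bases, with 11 mismatches and 2 gap bases (94.8% identity), whereas every other pair of the 6 had 45.5% to 53.3% under the same alignment. The C/EBP match sits at -182 to -175 in Saa1 and -183 to -176 in Saa2, counted back from the start site. It occurs in 4 of the 6 members, all of them serum amyloid genes, and in 9.56% of 32851 RefSeq promoters of the same length. The matches of Saa1 and Saa2 are the same letters in near-identical stretches, so the 4 are not independent, and enrichment was not tested. The STAT match, at -244 to -236 of Apcs, was found in 1 of the 6 and in 7.02% of promoters. The NF-kappaB consensus, searched on both strands under its name, was in 0 of the 6 and in 3.9% of promoters. No motif overlapped another in the members, and a match is only a string of letters, not a measured site. On the chromosome the 4 amyloid genes follow one another in the order Saa3, Saa4, Saa1, Saa2 with no other protein-coding gene between them, and Crp and Apcs are likewise neighbours.

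Saa3, the form also made outside hepatocytes (probe set 10563597), had wild-type levels of 7.81, 7.19 and 8.56, Mdr2-KO levels of 6.77, 6.23, 6.77 and 7.17, and Mdr2-KO/IL6-KO levels of 6.08, 5.91, 6.45 and 6.64. All 3 wild-type arrays lay above all 8 knockout arrays, with the gap to Mdr2-KO replicate 4 a narrow one. Saa3 fell by 1.58 ± 0.28 (SE) from wild type to Mdr2-KO/IL6-KO (2.99-fold, limma adjusted p = 0.00583). That call was lost in the unmoderated linear model (adjusted p = 0.0657). Mdr2-KO minus wild type was -1.12 (95% interval -1.73 to -0.51, adjusted p = 0.0863). Between the knockout groups the difference was -0.46 with an interval that includes 0 (-1.03 to 0.10, adjusted p = 0.9995).

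Saa4, the constitutive form (probe set 10563602), was the steadiest member in wild type, at 10.37, 10.28 and 10.28. Its Mdr2-KO levels were 9.96, 9.15, 10.06 and 9.29, and its Mdr2-KO/IL6-KO levels 9.03, 9.15, 8.92 and 9.29. In Mdr2-KO the arrays split into a high pair, replicates 1 and 3, and a low pair, replicates 2 and 4, that lay within or at the upper edge of the Mdr2-KO/IL6-KO range. Saa4 fell by 1.21 ± 0.19 (SE) from wild type to Mdr2-KO/IL6-KO (2.32-fold, limma adjusted p = 0.00254). Mdr2-KO minus wild type was -0.70 (95% interval -1.11 to -0.29, adjusted p = 0.119), and Mdr2-KO/IL6-KO minus Mdr2-KO was -0.52 (-0.90 to -0.14, adjusted p = 0.9995).

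Apcs, which encodes serum amyloid P component (probe set 10360328), had wild-type levels of 10.49, 9.67 and 10.57, Mdr2-KO levels of 8.17, 8.38, 9.62 and 9.65, and Mdr2-KO/IL6-KO levels of 8.12, 7.83, 7.85 and 8.42. Mdr2-KO replicates 3 and 4 nearly reached wild-type replicate 2, while replicates 1 and 2 lay among the Mdr2-KO/IL6-KO arrays. It fell by 2.19 ± 0.35 (SE) from wild type to Mdr2-KO/IL6-KO (4.56-fold, limma adjusted p = 0.0026). Mdr2-KO minus wild type was -1.29 (95% interval -2.03 to -0.55, adjusted p = 0.108), and Mdr2-KO/IL6-KO minus Mdr2-KO was -0.90 (-1.59 to -0.21, adjusted p = 0.9995).

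Crp, which encodes C-reactive protein (probe set 10351852), barely varied, with wild-type levels of 10.85, 10.65 and 10.72, Mdr2-KO levels of 10.46, 10.51, 10.46 and 10.61, and Mdr2-KO/IL6-KO levels of 10.44, 10.45, 10.41 and 10.47. The wild-type arrays were still all above the 8 knockout arrays, though only narrowly at wild-type replicate 2 and Mdr2-KO replicate 4. Mdr2-KO/IL6-KO minus wild type was -0.30 (95% interval -0.47 to -0.12, limma adjusted p = 0.0573), and it passed in 5 of 21 alternative settings. Mdr2-KO minus wild type was -0.23 (-0.40 to -0.06, adjusted p = 0.287), and Mdr2-KO/IL6-KO minus Mdr2-KO was -0.07 (-0.23 to 0.09, adjusted p = 0.9995).

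**Figure D2:**
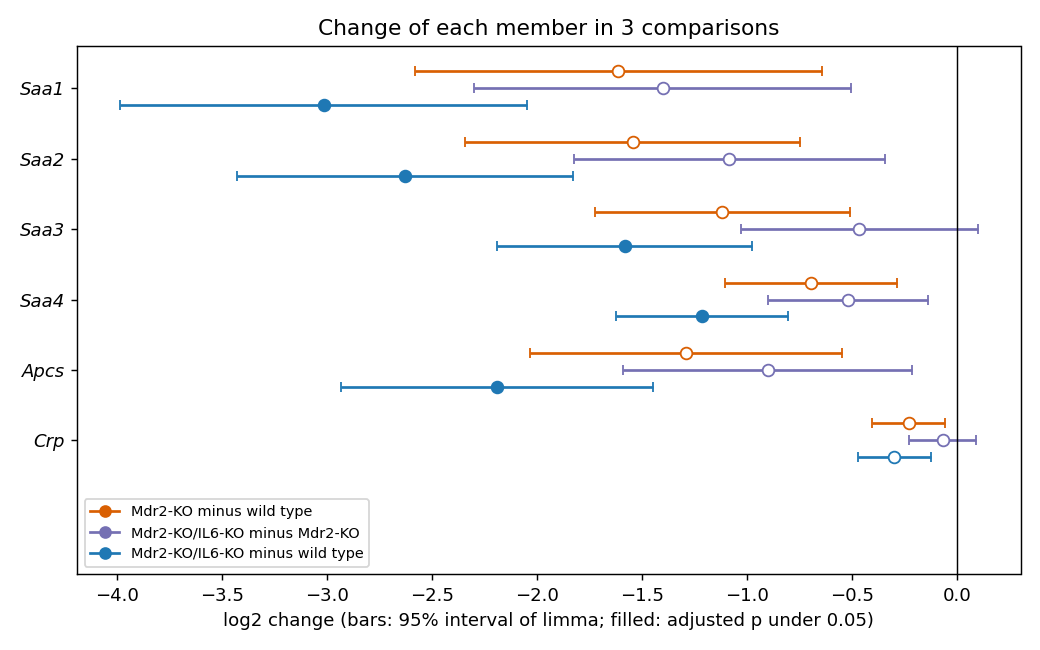
Log2 change of each member in the 3 comparisons, with 95% intervals from limma; filled points passed an adjusted p under 0.05. Filled points occur in Mdr2-KO/IL6-KO minus wild type alone, for 5 of the 6 members, from -3.02 for Saa1 to -1.21 for Saa4, and the intervals of Saa3 and Crp between the knockout groups include 0.

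The widest contrast, Mdr2-KO/IL6-KO against wild type, sets livers that lack both genes beside wild-type livers. Of the 6 members 5 fell, where 4.19% of all genes tested were called and 1.28% were called lower. At an unadjusted p under 0.05 all 6 were lower, against 6.1% of all genes. All 6 had no overlap of arrays, against 6.44% of all genes lower without overlap, and their median log2 change was -1.89 beside -0.0006 over all genes. Mdr2-KO against wild type sets livers without Mdr2 beside wild-type livers, and 0 of 6 members were called by limma, where 1.26% of all genes were called and 0.316% were called lower. At an unadjusted p under 0.05 all 6 were lower, against 4.09% of all genes, and 4 of 6 did not overlap, against 3.64%. The unmoderated model also called 0, and array weights called Saa2 and Saa4. Wild-type replicate 2 was the lowest wild-type array for all 6 members, though only narrowly for Saa4. Leaving it out brought Saa1 (adjusted p = 0.0473), Saa2 (0.0142) and Saa3 (0.0298) past the threshold. Without Mdr2-KO replicate 3 Saa4 passed (adjusted p = 0.0447). Mdr2-KO/IL6-KO against Mdr2-KO sets livers that also lack interleukin 6 beside those that lack Mdr2 alone. Here limma and the unmoderated model called 0 of 6 members, where 0.00502% of all genes were called lower. At an unadjusted p under 0.05, 4 of 6 were lower against 2.04% of all genes, and 0 of 6 did not overlap against 0.908%. By log2 change, which takes no account of spread within groups, Saa1 ranked 3 and Saa2 ranked 8 from the most lowered of all genes. By limma p-value in either direction they ranked only 120 and 157. The 3 comparisons share groups, so they are not independent of one another.

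The wide spread of these genes within groups stands beside those p-values. The SD of Saa1 within groups, 0.750, was larger than that of 99.9% of all genes, and those of Saa2 (0.614), Apcs (0.570), Saa3 (0.461) and Saa4 (0.299) exceeded 94.8% or more, where the median gene had 0.1505. Crp, at 0.0674, was less variable than most, with 3.23% of genes below it. All 6 members had a smaller SD in Mdr2-KO/IL6-KO than in Mdr2-KO arrays, as had 61.4% of all genes. The ratio of the SDs was 0.336 for Saa1, 0.386 for Saa2, 0.352 for Apcs, 0.347 for Saa4, 0.346 for Crp and 0.862 for Saa3, beside a median of 0.820 over all genes.

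Whether Saa1 moved further than the others was tested within arrays, as the log2 level of Saa1 minus that of another member, in 15 exact two-sided permutation tests with 0.0286 as the smallest p they can give. Saa1 was set against the others with its wide span already known. With that smallest p, no test can pass adjustment over the 15 unless most of them reach it, so a miss here says nothing of whether the changes differ. From wild type to Mdr2-KO/IL6-KO, the log2 change of Saa1 minus that of the other gene was -2.72 for Crp, -1.80 for Saa4, -1.43 for Saa3 and -0.83 for Apcs. Each of these 4 had the smallest p the design allows (exact p = 0.0286, adjusted p = 0.107). Against Saa2 the difference was -0.39 (exact p = 0.0571, adjusted p = 0.143). The arrays of the groups did not overlap in any of the 5 differences. In the other comparisons adjusted p lay between 0.143 and 0.714.

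**Figure D3:**
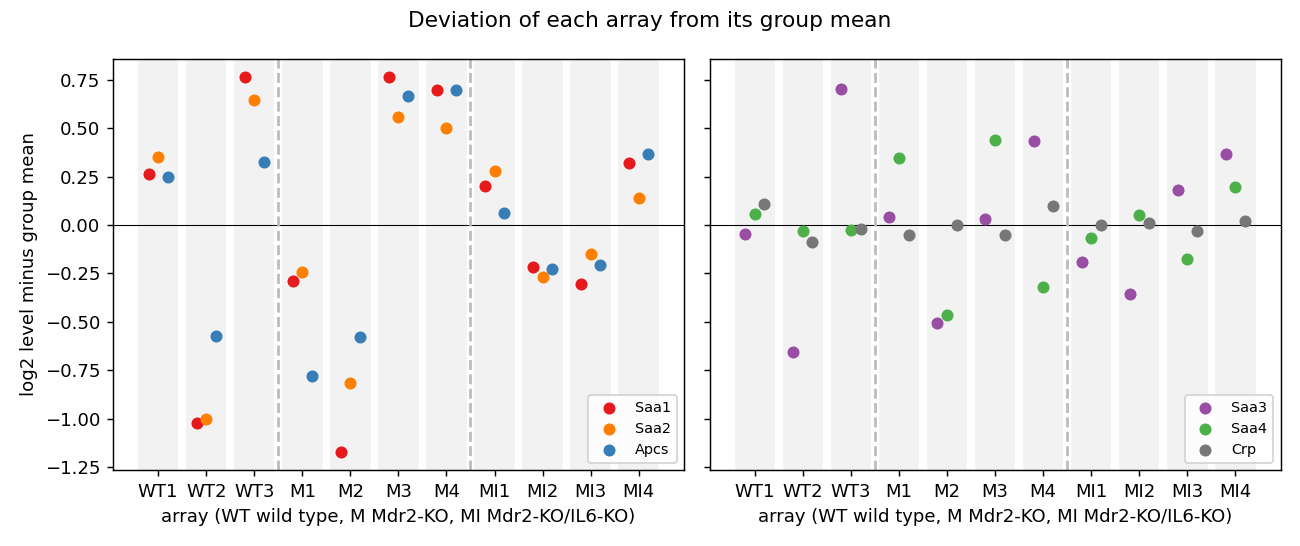
Log2 level of each array minus its group mean, for Saa1, Saa2 and Apcs on the left and Saa3, Saa4 and Crp on the right; dashed lines part the groups. On the left the 3 genes lie on the same side of 0 on all 11 arrays, well below it on wild-type replicate 2 and Mdr2-KO replicate 2, while on the right Saa4 and Saa3 part on several arrays.

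Within groups, Saa1, Saa2 and Apcs rose above and sank below their group means on the same arrays. After the group means were subtracted, Pearson r over the 11 arrays was 0.980 between Saa1 and Saa2 (Spearman rho 0.918) and 0.888 between Saa1 and Apcs (rho 0.882). It was 0.962 and 0.897 without the 2 arrays farthest from the median of Saa1. For Saa1 and Saa3 it was 0.796, or 0.567 without those arrays, and for Saa1 and Saa4 0.375, or -0.0263. Crp had 0.404 with Saa1 and 0.512 with Apcs. These are descriptions of 11 arrays that share whatever else differed between the samples. The second principal component of all genes, 19.6% of the variance, ran from -25.8 in Mdr2-KO replicate 2 to 21.0 in Mdr2-KO replicate 3. Its residual r was 0.877 with Saa1, 0.805 with Saa2 and 0.830 with Apcs, and 3.35%, 9.33% and 7.06% of all genes had a larger one in size. What that component stands for, and its part in these results, was not tested.

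Other genes with the most similar profiles were then sought over the 11 arrays. Beside Saa2 (r = 0.994), Saa1 was most like Cd302 (0.975) and Kng1 (0.973), which encodes the plasma protein kininogen. Saa2 was most like Saa1, then Lrg1 (0.976), which encodes a leucine-rich plasma glycoprotein of the acute phase, then Apcs (0.968). Apcs was most like Saa1 (0.972), Saa2 (0.968) and Sf3a3 (0.957), a splicing factor. Saa3 was nearest to Ttr (0.942), the thyroid hormone carrier transthyretin, Tap1 (0.940) and Saa2 (0.939). Saa4 was nearest to Il13ra1 (0.961), Mrps34 (0.956) and B3galt1 (0.953), and Crp to Nfyb (0.967), Tmem167 (0.956) and Cerkl (0.953). With group means removed the nearest to Saa1 were Hp (0.982), the haemoglobin-binding haptoglobin, Saa2 (0.980) and Lamp2 (0.977), a lysosomal membrane protein. The nearest to Saa2 were then Saa1 (0.980), Hp (0.974) and Cetn3 (0.974), and those to Apcs were Pef1 (0.968), Rps12 (0.967), a ribosomal protein, and Ywhaq (0.966). Xaf1, Septin4 and Hmgn1 came nearest to Saa3 (0.949, 0.922 and 0.921), Sfxn5, Pcgf5 and Akr1c13 to Saa4 (0.952, 0.946 and 0.930), and Cd7, Vmn1r87 and Cxcr2 to Crp (0.970, 0.966 and 0.928). These values rest on 11 arrays, and the genes named are only a few of those with high ones. A residual r above 0.9 was met by 130 genes with Saa1, 83 with Saa2, 90 with Apcs and 5 to 9 with the other members.

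**Figure D4:**
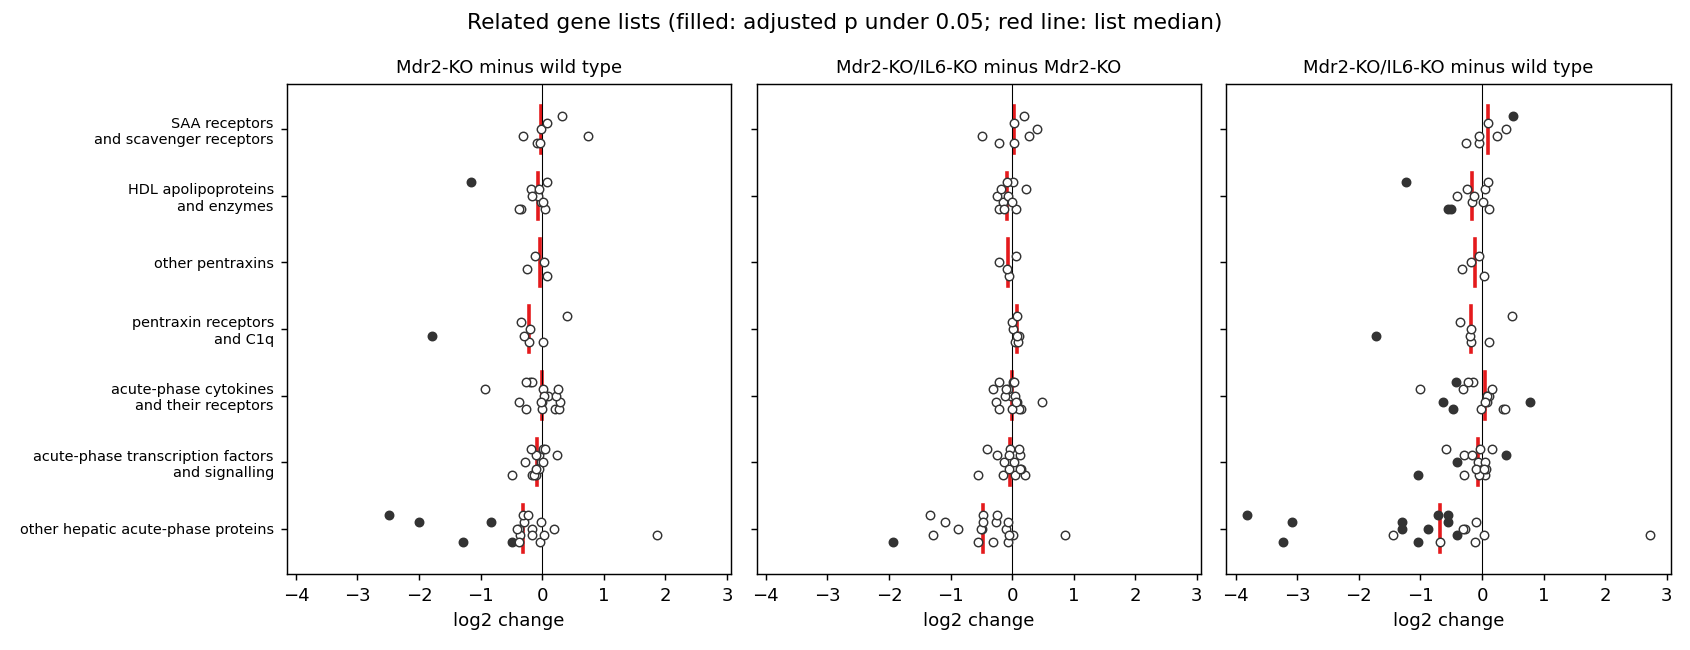
Log2 change of every measured gene in 7 lists of related genes, by comparison; filled points passed an adjusted p under 0.05 and red lines are list medians. The list of other hepatic acute-phase proteins lies to the left in all 3 panels, with medians of -0.32, -0.47 and -0.68, while the other lists have medians between -0.21 and 0.10.

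Upstream of these genes stand the cytokines, their receptors and the transcription factors. Il6 itself lay between 1.62 and 2.09 on all 11 arrays, near the bottom of the scale, so its probe set does not check the genotype; the Abcb4 probe set was lower in both knockout groups (log2 changes of -2.09 and -1.74). Of 17 measured acute-phase cytokines and receptors, 3 fell and 1 rose in Mdr2-KO/IL6-KO against wild type, where 2.91% of all genes were called higher (0.948% in Mdr2-KO), and limma called none in the other comparisons. Those with the lowest p were Tnfrsf1a, a tumour necrosis factor receptor (1.39-fold lower, limma adjusted p = 0.0225), Il22ra1, the interleukin 22 receptor chain (1.72-fold higher, 0.0306), and Il1rap, the interleukin 1 co-receptor (1.34-fold lower, 0.0334). The Tnfrsf1a call was lost without wild-type replicate 1 or 2 or Mdr2-KO/IL6-KO replicate 1 or 2 (adjusted p up to 0.115), and the other 2 calls without any wild-type array or Mdr2-KO/IL6-KO replicate 1, 2 or 3. Over all alternatives their adjusted p reached 0.132 for Il22ra1 and 0.136 for Il1rap. Between the knockout groups Il22ra1 had the lowest p of this list (1.41-fold higher, adjusted p = 0.9995). Il1b, an inducer of serum amyloid A, was 1.91-fold lower in Mdr2-KO than in wild type (adjusted p = 0.196), and passed without wild-type replicate 3 (0.0231). Its wild-type levels were 6.82, 6.88 and 5.64. Replicate 3, the lowest of these, had the highest Saa1, Saa2 and Saa3 of all arrays, so Il1b and these genes did not run together within wild type.

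Stat3, the factor that carries the interleukin 6 signal to the nucleus, had wild-type levels of 9.67, 9.65 and 9.34, Mdr2-KO levels of 9.18, 8.74, 9.34 and 8.995, and Mdr2-KO/IL6-KO levels of 8.37, 8.53, 8.61 and 8.56. Its order of groups was that of the 6 members, an order whose share among all genes was not counted. The 4 Mdr2-KO/IL6-KO arrays were below all others. Within wild type Stat3 was lowest on replicate 3, which had the highest Saa1, Saa2, Saa3 and Apcs. It fell 2.05-fold from wild type to Mdr2-KO/IL6-KO (limma adjusted p = 0.000738), and was 1.40-fold lower in Mdr2-KO than in wild type (adjusted p = 0.120) and 1.46-fold lower in Mdr2-KO/IL6-KO than in Mdr2-KO (adjusted p = 0.628). In the list of 17 measured transcription factors and signalling genes Myd88, the adaptor of interleukin 1 and Toll-like receptors, also fell in Mdr2-KO/IL6-KO against wild type (1.32-fold, 0.0152, or 0.0801 without wild-type replicate 1). Nfkb2 rose 1.30-fold (0.0415), a call that ended in 13 of 21 alternatives, among them quantile normalization, median centring, cyclic loess and leaving out any of 7 arrays in turn, namely wild-type replicates 2 and 3, Mdr2-KO replicate 4 and each Mdr2-KO/IL6-KO array (adjusted p up to 0.186). The list had a median change of -0.06 there and no call elsewhere.

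Downstream, the lists held the carriers and receptors of these proteins. Among 11 genes of high-density lipoprotein, Pltp, the phospholipid transfer protein, fell against wild type by a factor of 2.22 in Mdr2-KO (limma adjusted p = 0.00556) and of 2.36 in the double knockout (0.0014). Pltp in Mdr2-KO missed the threshold in the unmoderated model (0.0829). Abca1, which loads lipid onto the particle (log2 change -0.55, 0.0141), and Pon1, an esterase it carries (1.41-fold, 0.0163), fell in Mdr2-KO/IL6-KO, though not without wild-type replicate 2 or in the unmoderated model (Abca1, at most 0.0697) or without wild-type replicate 1 or 3 or Mdr2-KO/IL6-KO replicate 3 (Pon1, at most 0.0783). Between the knockout groups Lcat had the lowest p of this list (1.14-fold lower, adjusted p = 0.9995). Of 9 genes listed as serum amyloid A receptors and scavenger receptors 7 were measured, and Fpr1 and Fpr2 were not. Among the 7, Scarb1, the scavenger receptor that takes up high-density lipoprotein, rose 1.42-fold in Mdr2-KO/IL6-KO against wild type (0.00976, or 0.0523 without wild-type replicate 1). Scarb1 was 1.25-fold higher in Mdr2-KO (0.193), and between the knockouts Cd36 had the lowest p (1.32-fold higher, 0.9995).

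Pentraxins bind Fc receptors and C1q. Of 7 such genes measured, Fcgr4, an activating Fc receptor of macrophages and neutrophils, fell in both comparisons with wild type, 3.47-fold in the Mdr2-KO arrays (limma adjusted p = 0.038) and 3.30-fold in the double knockout (0.0224). Its wild-type levels were 8.88, 9.06 and 7.08, so replicate 3 was close to the highest Mdr2-KO array, 6.95. The Mdr2-KO call ended in 15 of 21 alternatives, including the omission of any array but wild-type replicate 3, and the Mdr2-KO/IL6-KO call ended without wild-type replicate 1 or 2 or Mdr2-KO/IL6-KO replicate 3; over all alternatives adjusted p reached 0.235 and 0.133. Without wild-type replicate 3 the log2 changes grew from -1.79 and -1.72 to -2.42 (adjusted p = 0.000634) and -2.35 (0.00038). Between the knockout groups Fcgr2b had the lowest p, with a log2 change of 0.08 that turned to -0.02 without Mdr2-KO/IL6-KO replicate 1 (adjusted p = 0.9995), so it has no settled direction. None of the 4 other pentraxins measured was called in any comparison; the lowest p were those of Nptx2 against wild type (1.18-fold lower in the Mdr2-KO arrays, adjusted p = 0.656, and 1.26-fold lower in the double knockout, 0.271) and of Ptx3, the long pentraxin, between the knockouts (1.16-fold lower, 0.9995).

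Of 19 other hepatic acute-phase proteins measured, 5 fell against wild type in the Mdr2-KO arrays and 11 in the double knockout. Between the knockout groups 1 fell, and none rose in any comparison. Of all genes, 0.316%, 1.28% and 0.00502% were called lower in the same order. Fgl1, a fibrinogen-like hepatocyte protein, was the 1 that fell between the knockouts, 3.84-fold (limma adjusted p = 0.00107, or 0.207 in the unmoderated model), and it fell 2.44-fold from wild type to Mdr2-KO (0.00531, or 0.0827 unmoderated) and 9.37-fold from wild type to Mdr2-KO/IL6-KO (1.68e-06). Its Mdr2-KO/IL6-KO arrays, at 8.80, 8.69, 8.97 and 8.80, lay well clear of the Mdr2-KO arrays, at 10.41, 10.46, 10.93 and 11.24, which Saa1, Saa2 and Apcs did not. Itih4, an inter-alpha-trypsin inhibitor chain, fell 1.41-fold in the Mdr2-KO arrays (0.0128, lost without wild-type replicate 1 or 3 or without Mdr2-KO replicates 2 and 3 together, at most 0.0762) and 2.05-fold in the double knockout (2.04e-05). Serpina3n, a protease inhibitor, fell 1.79-fold and 2.47-fold (0.0108 and 0.000227), with the Mdr2-KO call lost when only the 2 groups were fitted and in the unmoderated model (0.102). Like the members, this list was put together with earlier results of these data known.

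In bulk liver RNA, fewer cells of a type and less RNA per cell cannot be told apart. None of 9 measured hepatocyte markers was called in any comparison, and their mean log2 level had a median over arrays of 12.55 for wild type, 12.50 for Mdr2-KO and 12.53 for the double knockout. Of 7 bile duct markers 3 rose in each knockout group against wild type, with list means of 5.10 to 5.27, 5.86 to 5.92 and 5.72 to 6.20 in the same order. Of 10 stellate cell and fibroblast markers 6 rose in each, with list means of 6.37 to 6.71, 7.13 to 7.33 and 7.19 to 7.52. Their part in the fall of the amyloid genes and Apcs was not tested. None of 10 Kupffer cell and macrophage markers was called, with list means from 6.96 in wild-type replicate 3 to 8.17 in wild-type replicate 1. These arrays had Saa3 levels of 8.56 and 7.81, both above those of all other arrays. Of 10 neutrophil and 9 adipocyte markers none was called, with list means from 4.16 to 4.54 and from 5.14 to 5.71, and the fat hormone Adipoq stood near the bottom of the scale at 2.69 to 2.74. Of 9 lymphocyte markers, Cd8a fell in Mdr2-KO/IL6-KO against wild type (log2 change -0.58, adjusted p = 0.0464).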

How the data were processed

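Liver RNA of 11 samples was hybridised to 1 Affymetrix array each. The authors deposited log2 levels of 35557 probe sets, which per the submitters' processing notes come from Partek with RMA; no version or setting is stated in those notes. The values were used without further normalization, and array medians over probe sets lay between 5.09 and 5.23. Groups follow the genotype labels; replicate numbers follow sample order and pair nothing, and no batch is labelled. Probe sets were named from the platform annotation, with symbols updated by Entrez identifier to RefSeq (GRCm38.p6); 21789 had 1 symbol, and the brightest per gene gave 19938 genes, of which 19856 matched RefSeq. The number of arrays limits the precision; no filter on dim genes was applied.

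Comparisons used limma 3.58.1 in R 4.3.3: 1 model of 11 arrays, eBayes, two-sided, Benjamini-Hochberg adjustment over 19938 genes, called at an adjusted p under 0.05. The fit was tested on simulated data. The members, the lists and the choice of tests were made with earlier results of these data known. Text names the 6 members, the 3 genes most like each by Pearson r, and per list up to 3 called genes by lowest p, or otherwise the 1 with the lowest p. Alternatives were the mean of probe sets, quantile normalization, median centring, cyclic loess, only genes above the median gene, array weights, an unmoderated model, eBayes with trend and robust, a threshold of 0.01, a fit of only the 2 groups compared, and the omission of each array; a fit without Mdr2-KO replicates 2 and 3, the extremes of the second principal component, was chosen after seeing the data.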

Additional observations from a re-analysis of the deposited data

How the results depend on the processing

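Over 378 refits of the 18 member changes, 366 kept their side of the threshold, 1 lost it and 11 gained it. The loss was Saa3 in Mdr2-KO/IL6-KO minus wild type, in the unmoderated model (log2 change -1.58, adjusted p = 0.0657). The sign was negative in all, but many of the refits could not turn it. The log2 change stays fixed with the mean of probe sets, only genes above the median gene and eBayes with trend and robust. It also stays fixed in the unmoderated model, in the fit of only the 2 groups compared and when the omitted array is outside those groups. The count of called members in Mdr2-KO minus wild type, 0, became 2 with array weights, 3 without wild-type replicate 2 and 1 without Mdr2-KO replicate 3, and ranged from 0 to 3 over the 11 fits that leave out an array. In Mdr2-KO/IL6-KO minus wild type it was 5 or 6 in every setting run, and between the knockout groups 0 in all 22, including the fit without Mdr2-KO replicates 2 and 3. Crp gained the call in Mdr2-KO/IL6-KO minus wild type with median centring (adjusted p = 0.0439), only genes above the median gene (0.0214), eBayes with trend and robust (0.0306), the unmoderated model (0.0296) and array weights (0.0253), and ranged up to 0.236 without wild-type replicate 1. All genes called numbered 252, 1 and 836 in the order of Mdr2-KO minus wild type, Mdr2-KO/IL6-KO minus Mdr2-KO and Mdr2-KO/IL6-KO minus wild type. Leaving out an array gave 148 to 323, 1 to 5 and 464 to 989. The unmoderated model gave 43, 0 and 496, an adjusted p under 0.01 gave 94, 1 and 342, and array weights gave 410, 6 and 1341. A fit of only the 2 groups compared gave 138 in Mdr2-KO minus wild type. Between the knockout groups median centring, eBayes with trend and robust and the fit without Mdr2-KO replicates 2 and 3 gave 2, and cyclic loess and only genes above the median gene gave 4. The mean of probe sets cannot alter the members, which have 1 each. No paired analysis was possible because the labels give no replicate numbers shared between groups.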

Other observations

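Hamp, which encodes the iron hormone hepcidin and is itself a hepatic acute-phase gene, lay opposite to the amyloid genes and Apcs in all 3 comparisons; it was picked out after its values were seen. Its mean was 8.70 for wild type, 10.6 for Mdr2-KO and 11.4 for Mdr2-KO/IL6-KO. It was 6.65-fold higher in Mdr2-KO/IL6-KO than in wild type (limma adjusted p = 0.0568) and 3.66-fold higher in Mdr2-KO (adjusted p = 0.376), and neither difference passed. Ceruloplasmin, encoded by Cp, a copper-carrying acute-phase protein, differed by 0.04 or less on the log2 scale in each comparison, with log2 changes of 0.02, 0.01 and 0.04.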
